A study of Mus musculus with 7 samples.

Results

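The transcripts of 45 genes of BMP and TGF-beta signalling were measured in marrow-flushed femora of mice. The genes were chosen by symbol, as ligands, receptors, Smads, secreted inhibitors, latent TGF-beta binding proteins and Id target genes of the pathway, and all 45 were found among the 27179 genes of the count files. There were 3 libraries labelled Dmp1Cre.EfnB2f/f (below, libraries labelled f/f) and 4 libraries labelled Dmp1Cre (controls), each from a 12-week-old female on a C57BL/6 background. Both groups carried Dmp1Cre, a Cre recombinase driven by the Dmp1 promoter, which is active in late osteoblasts and osteocytes. The groups differed in the floxed EfnB2 alleles, carried by the mice labelled f/f alone. By the labels, they also differed in parents. Libraries 1 and 2 labelled f/f shared a parent cross, controls 1 and 2 shared another, and control 4 had its own. Only library 3 labelled f/f and control 3 came from the same cross. For the other mice, genotype and parent cross cannot be told apart. The libraries held RNA of the whole flushed bone, so cells in which Cre was not active also contributed. In such RNA, fewer cells of a type and less RNA per cell cannot be told apart.

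BMPs, activins and TGF-betas are secreted dimers that bind pairs of type I and type II serine/threonine kinase receptors. The type I receptor then phosphorylates a receptor Smad, Smad1, Smad5 or Smad9 downstream of BMPs and Smad2 or Smad3 downstream of TGF-betas and activins, which joins Smad4 and enters the nucleus. BMPs were named for their ability to induce bone, TGF-beta is stored in bone matrix in a latent form, and Noggin, Gremlin, Chordin and follistatins bind ligands outside the cell.

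Library totals ranged from 18119947 to 19119250 counts in the libraries labelled f/f and from 17245556 to 22075778 in the controls. After genes with low counts and several gene classes were left out, 15098 genes were tested, among them all 45 members, so none was lost to the filter on low counts. Efnb2, the floxed gene, had 17.9, 13.1 and 11.8 CPM (counts relative to the library total, which was scaled with TMM factors) in the libraries labelled f/f and 8.49, 7.93, 6.44 and 6.36 CPM in the controls. Its level thus went against the label, and the groups are named here by their labels. The counts are per gene, so loss of a single exon could not be read from them. By PCR of the targeted region in sorted osteocytes of other mice, the study reported effective deletion, with Efnb2 kept in non-osteocytic cells. On the first principal component, which held 53.9% of the variance, controls 1 and 4 (scores 43.9 and 68.8) stood apart from the other 5 libraries (-41.4 to -1.76). The bone markers Col1a1, Ibsp, Alpl, Phex, Dmp1, Mepe and Sost were present in every library. Per the study's methods, samples were collected on separate days, the later of which gave a single mouse of each genotype. Nothing in the labels states which libraries were collected on the same day. In order of sample name, the libraries end with library 3 labelled f/f and control 4, a mouse of each genotype, as on the later day. If that order follows collection, library 3 labelled f/f and control 3, from the same cross, were collected on different days.

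The members spanned a wide range of levels. Per length of transcript, the most abundant ligand in the controls was Tgfb1, with 72.4 ± 20.6 RPKM (CPM per kilobase of gene; SD, n = 4), and the next was Bmp3, an atypical BMP that opposes osteogenic BMPs, with 11.3 ± 6.07 RPKM. The least abundant ligand was Bmp7, with 1.36 ± 0.736 RPKM. Among the receptors Tgfbr2 was highest, with 32.7 ± 10.1 RPKM, and Bmpr1b was lowest, with 0.288 ± 0.156 RPKM. Bmpr1b therefore made up 4.398% of the summed RPKM of the type I BMP receptors Bmpr1a and Bmpr1b, on average over the controls. Among the BMP Smads, Smad5 (10.4 ± 1.28 RPKM) and Smad1 (7.998 ± 1.44 RPKM) were far above Smad9 (0.737 ± 0.355 RPKM). Id3, a target gene whose protein blocks basic helix-loop-helix factors, had 64.6 ± 37.4 RPKM, and Fstl1, a secreted glycoprotein of the follistatin-like family, had 37.8 ± 11.3 RPKM.

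**Figure D1:**
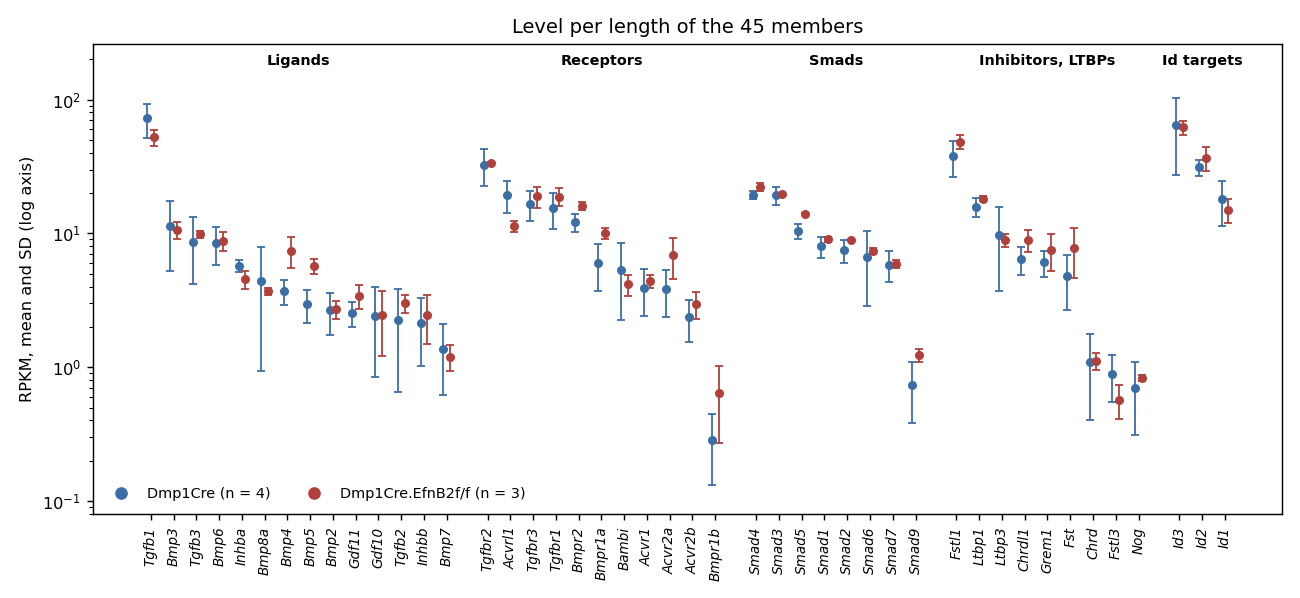
Level of each of the 45 members in RPKM (log axis), ordered by role and by the control mean, as mean and SD of the 4 Dmp1Cre libraries (blue) and the 3 Dmp1Cre.EfnB2f/f libraries (red). Tgfb1 is the highest ligand, at 72.4 RPKM in the controls, and Bmpr1b the lowest member, at 0.288 RPKM.

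The first question was whether any of these genes differed between the genotypes. With edgeR's quasi-likelihood test and Benjamini-Hochberg adjustment over all 15098 genes, not 1 of the 45 members, 0 in all, reached an adjusted p-value of 0.05, and the share of all genes that did was 0%. Without adjustment 7 of 45 had a p-value under 0.05, namely Bmp4, Bmp5, Bmpr1a, Bmpr2, Acvr2a and Smad5 with higher means and Acvrl1 with a lower mean in the libraries labelled f/f. Over all genes tested, 9.66% had such a p-value, 4.63% higher and 5.03% lower. Those 9.66% were 699 genes higher and 760 lower, a split that was 858 and 557 when libraries were scaled by their totals only and 714 and 1181 with DESeq2. In 6 of the 45 members there was no overlap between the groups, against 11.3% of all genes, and these were the same genes without Acvr2a. Of the 6, 5 were higher, where 5.05% of all genes were, and 1 was lower, where 6.3% of all genes were. The fitted log2 fold change was above 0 in 34 members and below 0 in 11, with a median of 0.18, where the median over all genes tested was 0.01.

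DESeq2 also called 0 of the 45 members at an adjusted p-value under 0.05, where it called 0.477% of all genes (0.159% higher and 0.318% lower). The study's pipeline, a limma-trend fit of quantile-normalized log2 CPM with sample quality weights, run here without its block for the day of collection, called 13 of the 45, where it called 14.9% of all genes, 7.49% higher and 7.39% lower. The 12 with higher values were Bmp4, Bmp5, Inhbb, Tgfb2, Tgfb3, Bmpr1a, Acvr1, Bmpr2, Tgfbr3, Smad5, Smad9 and Fstl1, and the 1 with a lower value was Inhba. Without the weights the same pipeline called 0 of the 45, and 0% of all genes. The edgeR count of 7 without adjustment moved when 1 library was left out. It became 3 when either library 1 or library 2 labelled f/f was dropped and 15 when control 1 was dropped, where the shares of all genes were 2.84%, 3.88% and 11.3%. A block for the replicate number also gave 3, against 3.82% of all genes. Bmp4, Bmp5 and Acvrl1 were below 0.05 whichever library was left out.

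**Figure D2:**
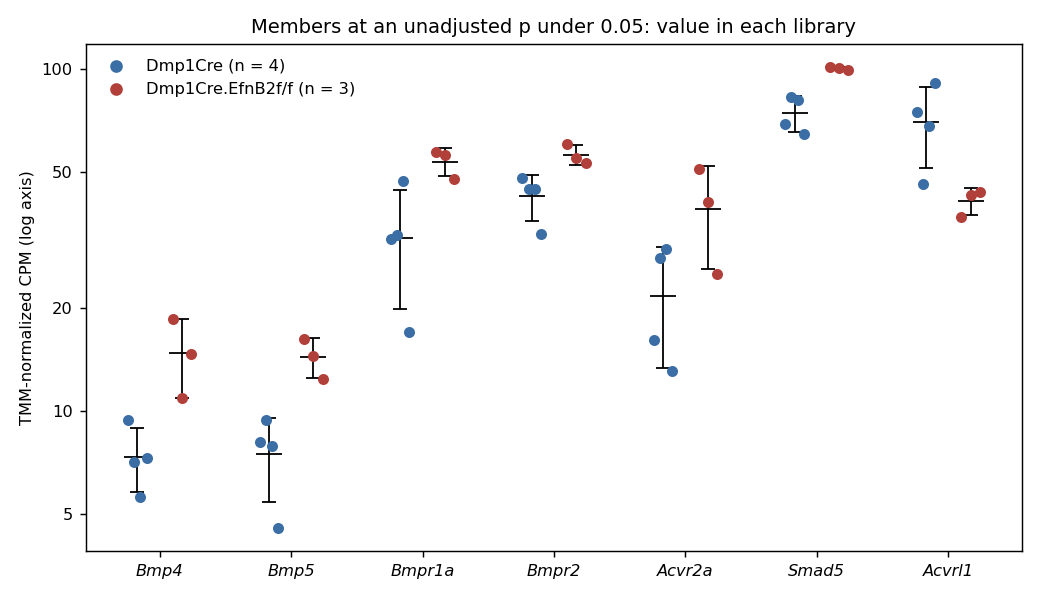
Level of the 7 members with an unadjusted p-value under 0.05 in each library, in TMM-normalized CPM (log axis), for the 4 Dmp1Cre libraries (blue) and the 3 Dmp1Cre.EfnB2f/f libraries (red), with the mean and SD in black. The groups do not overlap for Bmp4, Bmp5, Bmpr1a, Bmpr2, Smad5 and Acvrl1, and overlap for Acvr2a.

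Among the ligands, the lowest p-values were those of Bmp4 and Bmp5. Bmp4 is an osteogenic ligand made by osteoblast-lineage and marrow stromal cells (chromosome 14 of GRCm38, from 46383525 to 46390669). Its level was 18.6, 10.97 and 14.7 CPM in libraries 1, 2 and 3 labelled f/f and 9.43, 7.13, 5.62 and 7.28 CPM in controls 1 to 4. Every library labelled f/f was above every control, and the lowest of them lay close to control 1. The log2 fold change was 1.00 (standard error 0.25, unadjusted p = 0.00308, adjusted p = 0.511, edgeR's quasi-likelihood test). The two-sided exact permutation test of the difference in mean log2 CPM gave p = 0.0286, the smallest that 3 against 4 libraries allow. The same two-sided exact permutation test gave p = 0.0571 for Bmpr1a, Bmpr2 and Acvrl1 and p = 0.171 for Acvr2a, none under 0.05. The span of Bmp4 overlaps the predicted genes Gm15217 and Gm15222, and since the strand setting of the counting was not stated, reads could be shared between them.

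Bmp5 is a ligand of the Bmp6 and Bmp7 subgroup with a known part in skeletal patterning (chromosome 9 of GRCm38, from 75775365 to 75900316). Its level was 16.3, 14.5 and 12.4 CPM in the libraries labelled f/f and 8.13, 9.41, 7.90 and 4.57 CPM in the controls, again with no overlap. Its log2 fold change was 0.94 (standard error 0.26, unadjusted p = 0.00536, adjusted p = 0.511, edgeR's quasi-likelihood test), and the two-sided exact permutation p was 0.0286. Over all alternative fits the log2 fold change ran from 0.72 to 1.39 for Bmp4 and from 0.65 to 1.07 for Bmp5. In a fit with the parent cross as a block, which rests on the 1 mouse of each group whose parents were the same cross, it was 1.39 for Bmp4 and 0.65 for Bmp5.

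The sequences around the annotated starts of Bmp4 and Bmp5 are shown because these were the ligands with the lowest p-values. They run 5′ to 3′ on the strand of the gene, from 250 bases before to 50 bases after the start, in RefSeq's annotation of GRCm38.p6. Bmp4 is read from chr14:46390620-46390919 on the minus strand and Bmp5 from chr9:75775115-75775414 on the plus strand. Capitals mark the letters GGCGCC, a GC-rich element bound by BMP Smads, and CAGAC or its reverse complement GTCTG, the core of the Smad3 and Smad4 element.
Bmp4: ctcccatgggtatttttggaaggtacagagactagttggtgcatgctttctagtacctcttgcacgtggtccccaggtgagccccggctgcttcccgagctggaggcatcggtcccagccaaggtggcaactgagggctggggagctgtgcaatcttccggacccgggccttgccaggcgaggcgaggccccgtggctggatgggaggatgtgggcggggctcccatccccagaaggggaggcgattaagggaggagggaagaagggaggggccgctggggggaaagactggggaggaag
Bmp5: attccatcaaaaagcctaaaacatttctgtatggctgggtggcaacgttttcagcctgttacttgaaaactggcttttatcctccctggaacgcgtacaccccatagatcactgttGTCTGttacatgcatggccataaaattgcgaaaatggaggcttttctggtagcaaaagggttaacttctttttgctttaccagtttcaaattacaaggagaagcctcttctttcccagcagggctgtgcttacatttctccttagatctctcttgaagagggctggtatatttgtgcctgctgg
The Bmp4 window held neither motif and the Bmp5 window held 1 GTCTG, whose first base lies 134 bases before the start. Windows were at hand for 31 of the 45 members. GGCGCC was found in 9 of these 31 and in 13.4% of 27025 genes with such a window, and CAGAC, searched on both strands, in 17 of 31 and in 53.2%. The longer palindrome GTCTAGAC was in 1 of the 31, Smad6, and in 0.248% of all. The letters of the motifs did not overlap each other in the windows printed here.

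The other BMP-type ligands had fitted differences nearer to 0 than Bmp4 and Bmp5. Bmp2, the ligand most used to induce bone, had a log2 fold change of 0.02 with a 95% interval from -0.62 to 0.66, and that of Bmp6 was 0.06 (-0.52 to 0.64). Bmp3, the highest BMP by level, had 34.6, 27.7 and 37.2 CPM in the libraries labelled f/f and 63.2, 26.3, 22.3 and 29.1 CPM in the controls. Its groups overlapped and control 1 was far above the rest, and its log2 fold change of -0.09 (-0.89 to 0.72) became 0.36 when that library was dropped. Gdf11, a ligand related to myostatin, had a log2 fold change of 0.43 (-0.13 to 0.99), and those of Bmp7, Bmp8a and Gdf10 were -0.19, -0.27 and 0.02. When control 1 was dropped these became 0.22, 0.45 and 0.41, and without library 3 labelled f/f that of Gdf10 was -0.47.

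The TGF-beta ligands and activin subunits had no member at an unadjusted p-value under 0.05. Tgfb1, the main latent TGF-beta of bone matrix and of platelets, had 112, 93.0 and 122 CPM in the libraries labelled f/f and 166, 130.5, 106 and 204.7 CPM in the controls. The highest values were those of controls 4 and 1, and control 3 lay inside the range of the libraries labelled f/f. Its log2 fold change was -0.47 (standard error 0.24, unadjusted p = 0.0833, adjusted p = 0.517, edgeR's quasi-likelihood test). Of the summed RPKM of the 3 TGF-beta isoforms, Tgfb1 made up 78.6% to 81.1% in the libraries labelled f/f and 80.0%, 89.7%, 87.2% and 91.4% in controls 1 to 4, so that only control 1 lay within the range of the former. Tgfb2 and Tgfb3, the less abundant isoforms, had log2 fold changes of 0.44 (-0.57 to 1.44) and 0.18 (-0.59 to 0.95). With control 1 dropped they became 1.07 and 0.60, and both then had an unadjusted p-value under 0.05 in edgeR. Inhba and Inhbb, which encode the beta subunits of activin A and activin B, had log2 fold changes of -0.32 (-0.76 to 0.12) and 0.19 (-0.77 to 1.16).

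Among the receptors, Bmpr1a, Bmpr2, Acvr2a and Acvrl1 had an unadjusted p-value under 0.05, of 11 receptors, co-receptors and decoys. Bmpr1a, the main type I receptor for Bmp2 and Bmp4 (chromosome 14, 34411061 to 34503336), was measured at 57.0, 56.0 and 47.8 CPM in the libraries labelled f/f and 31.8, 32.7, 46.9 and 17.1 CPM in the controls. The groups were separated by less than 1 CPM, between library 3 labelled f/f and control 3, the mice that share a parent cross. The log2 fold change was 0.74 (standard error 0.29, unadjusted p = 0.0344, adjusted p = 0.511, edgeR's quasi-likelihood test), and a block for the parent cross brought it to 0.03. Bmpr2, the type II receptor that most BMPs share (chromosome 1, 59764279 to 59878081), was measured at 60.4, 54.9 and 53.2 CPM against 48.0, 44.5, 44.6 and 32.9 CPM, with no overlap. Its log2 fold change was 0.40 (standard error 0.17, unadjusted p = 0.0437, adjusted p = 0.511, edgeR's quasi-likelihood test).

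Acvr2a, a type II receptor for activins that BMPs also use (chromosome 2, 48814109 to 48903264), was measured at 51.1, 40.7 and 25.2 CPM in the libraries labelled f/f and 16.1, 28.1, 29.7 and 13.2 CPM in the controls. Libraries 1 and 2 were above every control and library 3 lay within their range. The log2 fold change was 0.84 (standard error 0.34, unadjusted p = 0.0366, adjusted p = 0.511, edgeR's quasi-likelihood test), a block for the parent cross turned it to -0.23, and the gene overlaps Orc4. Bmpr1b had the largest fitted difference, 1.16 (standard error 0.52), resting on between 11 and 102 counts, and without library 1 labelled f/f this became 0.59. That library had 5.67 CPM, where libraries 2 and 3 had 2.80 and 1.84 CPM and the controls 2.12, 1.08, 2.34 and 0.598 CPM, so the groups overlapped.

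Acvrl1 was the member with a lower mean at an unadjusted p-value under 0.05. It encodes ALK1, the type I receptor for Bmp9 and Bmp10 that is best known from endothelial cells (chromosome 15 of GRCm38, from 101128522 to 101145336). Its level was 36.9, 42.8 and 43.6 CPM in the libraries labelled f/f and 75.0, 46.0, 68.3 and 90.9 CPM in the controls. All libraries labelled f/f were below every control, and control 2 was close to them. The log2 fold change was -0.77 (standard error 0.23, unadjusted p = 0.00950, adjusted p = 0.511, edgeR's quasi-likelihood test). The summed level of the endothelial markers Cdh5, Pecam1, Emcn, Kdr and Tie1 did not go the same way, with 389.6 to 461 CPM in the libraries labelled f/f and 301 to 423 CPM in the controls, and 4 of the 5 had a higher mean in the former.

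The TGF-beta receptors had smaller fitted differences. Tgfbr2 had 163, 162 and 156 CPM in the libraries labelled f/f and 217.5, 134, 105 and 169 CPM in the controls, and its fitted log2 fold change was 0.04 with a 95% interval from -0.52 to 0.59. Tgfbr3, or betaglycan, a co-receptor that presents TGF-beta, had 131, 121 and 91.6 CPM against 137, 85.9, 82.4 and 97.3 CPM, a log2 fold change of 0.18 (-0.32 to 0.69). Both sets of values overlapped. Tgfbr1, the kinase partner of Tgfbr2, was at 0.29 (-0.29 to 0.88). Acvr1, a type I receptor for BMPs, was at 0.16 (-0.51 to 0.83) and Acvr2b, a type II receptor for activins and myostatin, at 0.32 (-0.37 to 1.01). Bambi, a decoy receptor without a kinase domain, was at -0.36 (-1.35 to 0.63), with its widest values in controls 1 (44.4 CPM) and 3 (12.0 CPM).

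**Figure D3:**
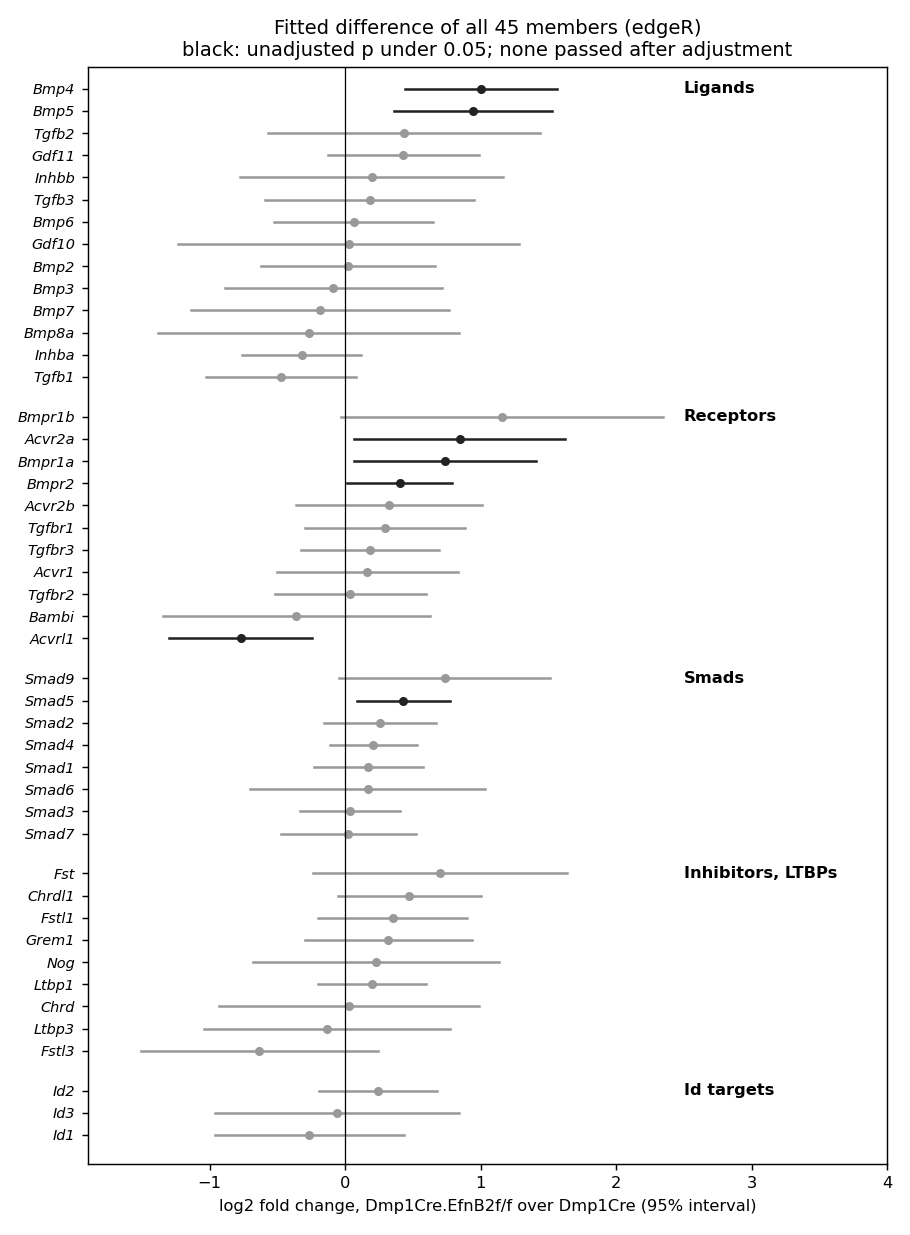
Fitted log2 fold change of each of the 45 members, libraries labelled Dmp1Cre.EfnB2f/f over Dmp1Cre, as points with 95% intervals from edgeR's quasi-likelihood fit, grouped by role. Black marks the 7 members with an unadjusted p-value under 0.05, of which Acvrl1 (-0.77) is the 1 with a lower mean.

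All 8 Smads had a log2 fold change above 0 in the edgeR fit of all libraries, from 0.02 for Smad7 to 0.74 for Smad9. Of all 15098 genes tested, 7751 were above 0. The sign was not kept in every fit. Without control 3, Smad3, Smad6 and Smad7 were at -0.011, -0.059 and -0.12, and with DESeq2 Smad7 was at -0.0025. Of the 8 Smads, 1, Smad5, had an unadjusted p-value under 0.05. Smad5, a receptor Smad of the BMP arm (chromosome 13, 56703010 to 56742378), was measured at 101, 101 and 99.0 CPM in the libraries labelled f/f and 69.2, 83.0, 81.3 and 64.3 CPM in the controls. The libraries labelled f/f were nearly the same as each other and above every control. The log2 fold change was 0.43 (standard error 0.15, unadjusted p = 0.0201, adjusted p = 0.511, edgeR's quasi-likelihood test), and the two-sided exact permutation p was 0.0286. Smad9 had 6.95, 7.07 and 5.80 CPM against 6.73, 3.37, 3.34 and 2.39 CPM, so that control 1 lay among the libraries labelled f/f and the other controls lay below them. Its fitted difference was 0.74 on the log2 scale (standard error 0.34), which became 1.12 when control 1 was dropped. Smad1 had 0.17 (-0.23 to 0.57).

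Smad3 had 101, 100.1 and 99.0 CPM in the libraries labelled f/f and 120.4, 87.4, 88.4 and 94.8 CPM in the controls, with a fitted log2 fold change of 0.03 (-0.34 to 0.40). Smad4, the partner of every receptor Smad, had 78.3, 77.1 and 68.6 CPM against 70.3, 65.1, 64.3 and 59.1 CPM, a log2 fold change of 0.21 (-0.12 to 0.53), and overlapped only through library 3 labelled f/f and control 1. It also had the smallest spread among the controls of all 45 members, with a coefficient of variation of 7.09%. Smad2 was at 0.26 (-0.16 to 0.67). The inhibitory Smads, Smad6 and Smad7, which BMP and TGF-beta signals induce and which then damp them, had log2 fold changes of 0.17 (-0.70 to 1.03) and 0.02 (-0.48 to 0.52).

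None of the 9 secreted inhibitors, follistatin-family proteins and latent TGF-beta binding proteins had an unadjusted p-value under 0.05. The lowest was that of Chrdl1, a chordin-like BMP binder (adjusted p = 0.517, edgeR's quasi-likelihood test), whose fitted difference was 0.47 on the log2 scale (-0.06 to 1.00). Fst, which binds activins, had the largest difference of the group, with 23.8, 20.7 and 9.804 CPM in the libraries labelled f/f and 15.7, 14.5, 8.84 and 5.43 CPM in the controls. Libraries 1 and 2 were above every control and library 3 was not, and the log2 fold change was 0.70 (-0.24 to 1.64). Fstl1 had 171, 155 and 196 CPM against 191, 119, 95.7 and 139 CPM, a log2 fold change of 0.35 (-0.20 to 0.90), with control 1 again inside the range of the libraries labelled f/f.

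Ltbp1, which tethers latent TGF-beta to the matrix, had 156, 144 and 143 CPM in the libraries labelled f/f and 149, 134, 99.1 and 134 CPM in the controls, with a fitted log2 fold change of 0.20 (-0.20 to 0.60). Ltbp3 was at -0.13 (-1.04 to 0.77), and at 0.39 when control 1 was dropped. Fstl3, an activin and myostatin binder with 17 to 44 counts per library, was at -0.63 (-1.51 to 0.24). The BMP antagonist genes Nog, Grem1 and Chrd were at 0.23, 0.32 and 0.03. Nog had few counts, from 15 to 48 in each library.

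The Id genes are direct transcriptional targets of BMP Smads and are often used as a readout of BMP signalling. Id3 had 55.0, 55.0 and 67.2 CPM in the libraries labelled f/f and 111, 43.5, 29.4 and 62.2 CPM in the controls, and its fitted log2 fold change was -0.06 with a 95% interval from -0.96 to 0.84. The controls spread so widely, with a coefficient of variation of 58.0%, that the libraries labelled f/f all lay inside their range, and the sign was reversed without control 1 (0.39) and when libraries were scaled by their totals only (0.04). Id1 had 12.7, 11.4 and 16.9 CPM against 22.7, 11.5, 10.9 and 20.6 CPM, a log2 fold change of -0.26 (-0.96 to 0.44). Id2 had 48.6, 55.2 and 36.6 CPM against 38.6, 43.4, 43.7 and 32.6 CPM, a log2 fold change of 0.24 (-0.19 to 0.68). None of Id1, Id2 and Id3 had an unadjusted p-value under 0.05, and the intervals do not exclude a difference as large as that of Smad5. Id4, which is not among the 45 members, did have one and is given with the further pathway genes. The interval of Bmp4 ran from 0.44 to 1.56, those of Id2 and Id3 overlapped it, and that of Id1 ended just below it. Whether the Id genes followed Bmp4 was not tested.

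The start regions of Id2 and Id3 are shown because these targets read out the Smads, with capitals for the same motifs and in the same frame. Id2 is read from chr12:25096043-25096342 on the minus strand and Id3 from chr4:136143572-136143871 on the plus strand.
Id2: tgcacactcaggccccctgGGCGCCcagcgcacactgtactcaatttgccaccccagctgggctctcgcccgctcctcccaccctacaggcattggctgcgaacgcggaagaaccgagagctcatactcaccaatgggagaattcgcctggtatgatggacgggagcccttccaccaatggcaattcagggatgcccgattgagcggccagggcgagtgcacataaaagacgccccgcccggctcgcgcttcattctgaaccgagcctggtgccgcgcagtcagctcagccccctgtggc
Id3: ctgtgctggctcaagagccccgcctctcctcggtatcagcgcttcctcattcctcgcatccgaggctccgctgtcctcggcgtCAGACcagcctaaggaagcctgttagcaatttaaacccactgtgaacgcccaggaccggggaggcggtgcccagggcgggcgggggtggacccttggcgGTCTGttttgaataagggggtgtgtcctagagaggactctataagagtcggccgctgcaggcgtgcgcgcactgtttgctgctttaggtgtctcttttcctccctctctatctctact
Id2 held 1 GGCGCC, 231 bases before the start, and Id3 held 1 CAGAC and 1 GTCTG, 167 and 68 bases before it.

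Control 1 held the highest values of many members. Of the 45 members, 30 had their highest control value in control 1 (66.7%, against 21.0% of all genes tested), and 21 had their highest value of all 7 libraries there (46.7%, against 14% of all genes). The lowest control was control 3 for 19 members (42.2%, against 26.5% of all genes) and control 4 for 15 (33.3%, against 26.7% of all genes). The median deviation of the members from the mean of the controls was 0.48 on the log2 scale in control 1, -0.17 in control 2, -0.26 in control 3 and -0.03 in control 4, and 0.27, 0.26 and 0.20 in the libraries labelled f/f. The coefficient of variation among the controls had a median of 34.7% over the members and 26.5% over all genes. It was widest for Bmp8a (78.9%), with 23.1 CPM in control 1 and 5.33 to 7.81 CPM in the other controls, and for Tgfb2 (70.9%), with 21.8 CPM in control 1 and 5.98 to 7.49 CPM in the others. With control 1 left out, 20 of the 45 members had no overlap between the groups, where 19.6% of all genes did so. Without controls 1 and 4, an alternative chosen after seeing the data, the numbers were 31 of 45 and 37.6% of all genes, and 25 of 45 had an unadjusted p-value under 0.05, 24 of them higher, against 17.5% of all genes. In that fit the log2 fold change was 0.43 for Bmpr1a, 0.44 for Acvr2a and -0.47 for Acvrl1, nearer to 0 than with all libraries, and 1.21 for Bmp4.

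**Figure D4:**
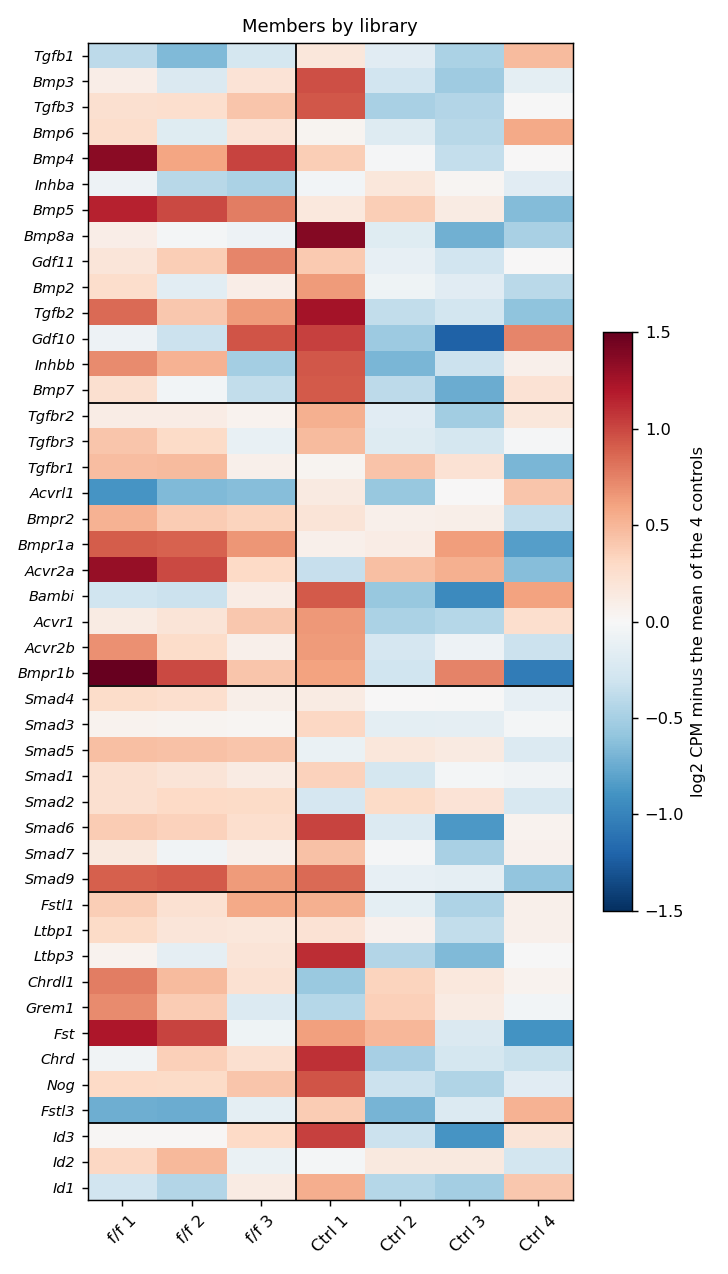
Level of each of the 45 members (rows, by role and then by mean RPKM) in each library (columns), as log2 CPM minus the mean of the 4 controls, with colours saturating at 1.5 in either direction. Control 1 is the column with the most high values, at a median of 0.48, and control 3 has the lowest median, at -0.26.

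The libraries also differed in the levels of cell type markers, of which 12 lists were summed. The 7 osteoblast and osteocyte markers summed to 39580 CPM in control 1 and to between 7998 and 19201 CPM in the other controls, with 8125 to 13460 CPM in the libraries labelled f/f. Col1a1, the main collagen gene of bone matrix, made up 96.7% of that sum in control 1, with 38291 CPM, and 18722.5 CPM of the sum in control 4. Of the 7 markers, 5 (Col1a1, Alpl, Dmp1, Mepe and Sost) had their highest value of all libraries in control 1, while Ibsp and Phex were highest in library 1 labelled f/f. The 6 erythroid markers were all lower in the libraries labelled f/f, 5 of them at an unadjusted p-value under 0.05, with sums of 6599 to 13470 CPM against 15486 to 43518 CPM. The 6 granulocyte markers were also all lower, 1 at that p-value, with 10987 to 13767 CPM against 15886 to 18030 CPM. The 6 skeletal muscle markers were all higher, 3 at that p-value, with 21604 to 33969 CPM against 9960 to 22961 CPM. The highest control for muscle was control 3. It was also the highest control for 4 of the 45 members (8.89%, against 26.5% of all genes), Bmpr1a, Bmpr1b, Acvr2a and Id2. Among the libraries labelled f/f, library 2 was highest for muscle and for Id2, and library 1 for the 3 receptor genes. The 5 markers of megakaryocytes and platelets, cells rich in Tgfb1, summed to 1656 to 1770 CPM in the libraries labelled f/f and 1209 to 2755 CPM in the controls. Of these markers, 4 had a lower mean in the former. The highest sum was in control 4, where Tgfb1 was highest too. The lowest sum of all libraries (1209 CPM) was in control 1, where Tgfb1 was next highest. None of these lists had a marker at 0 in any library. The part of these markers in the differences of Bmp4, Bmp5, Bmpr1a, Bmpr2, Acvr2a, Smad5, Acvrl1 and Tgfb1 was not tested.

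**Figure D5:**
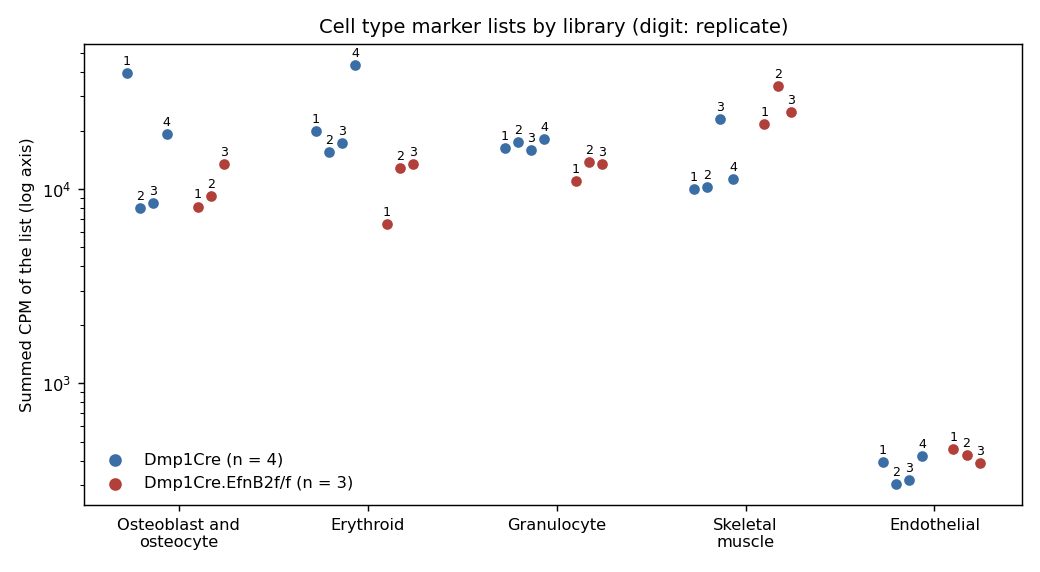
Summed CPM (log axis) of 5 of the 12 marker lists in each library, for Dmp1Cre (blue) and Dmp1Cre.EfnB2f/f (red), with the replicate number above each point. Control 1 is highest for the sum of bone markers (39580 CPM, mostly Col1a1), control 4 for erythroid markers (43518 CPM), and the groups do not overlap for the erythroid and granulocyte lists.

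The summed levels of the other 7 lists overlapped between the groups. Control 1 was the highest of all libraries for the adipocyte list (509.8 CPM, with 150.1 to 433 CPM in the others), the chondrocyte list (876 CPM, with 149 to 537 CPM in the others), the osteoclast list (1200.3 CPM, with 196 to 597 CPM in the others) and the fibroblast and tendon list (518 CPM, with 148 to 385 CPM in the others). Single genes made up much of these sums in control 1, Cfd 55.9% of the adipocyte list, Col2a1 89.7% of the chondrocyte list, Acp5 59.3% of the osteoclast list and Postn 92.5% of the fibroblast and tendon list. Macrophage markers summed to 482 to 521 CPM in the libraries labelled f/f and 455 to 691 CPM in the controls, and B-lineage markers to 145 to 149 CPM and 105 to 172 CPM. The endothelial sums are given with Acvrl1. Of the 5 chondrocyte markers, 2 were at 0 in at least 1 library.

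A list of 80 further genes of the pathway, outside the 45 members, was likewise chosen with earlier results of these data known. It had 77 in the files and 60 among the genes tested. With edgeR 0 of the 60 reached an adjusted p-value of 0.05, and 8 had an unadjusted p-value under 0.05, 6 higher and 2 lower, where 9.66% of all genes did. The study's limma pipeline without the day block called 17 of the 60, 15 higher and 2 lower, where it called 14.9% of all genes (7.49% higher and 7.39% lower), and without its weights it called 0. The higher genes at an unadjusted p-value under 0.05 in edgeR were Mstn, Zfyve9, Hfe2, Id4, Tgif1 and Crim1 and the lower ones Tgfbi and Gdf3, with adjusted p = 0.511 for each (edgeR's quasi-likelihood test).

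Mstn, or myostatin, a ligand made by skeletal muscle that signals through Acvr2b and Acvr2a, was measured at 9.005, 19.0 and 13.5 CPM in the libraries labelled f/f and 4.402, 4.11, 7.85 and 1.30 CPM in the controls. The log2 fold change was 1.65 (0.52 to 2.78). Its highest control was control 3, as for the muscle markers. Hfe2, or hemojuvelin, a BMP co-receptor of muscle and liver, likewise had its highest control value in control 3, 85.7 CPM, and 75.5 to 105 CPM in the libraries labelled f/f. Zfyve9, or SARA, an anchor that brings Smad2 and Smad3 to the receptor, was at 0.64 on the log2 scale (0.18 to 1.097), and its groups did not overlap. Id4, the Id family gene outside the 45 members, had 10.6, 7.90 and 9.33 CPM against 5.90, 6.45, 3.92 and 7.83 CPM, a log2 fold change of 0.62 (0.04 to 1.20), with library 2 labelled f/f just above control 4. Tgfbi, a matrix protein gene induced by TGF-beta, had 101, 119 and 122 CPM against 232, 139.7, 153 and 180.4 CPM, a log2 fold change of -0.63 (-1.11 to -0.15), with no overlap. Gdf3, a ligand of the Nodal branch, was at -0.85 (-1.496 to -0.21), again without overlap. Tgif1, a repressor of Smad-driven transcription, and Crim1, a membrane protein that binds BMPs, were at 0.50 (0.03 to 0.97) and 0.38 (0.0042 to 0.76), and both overlapped.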

How the data were processed

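Per the labels and the study's methods, RNA of flushed femora was sequenced as paired-end reads, demultiplexed with bcl2fastq 2.17.1.14 (submitters' processing notes), mapped to mm10 with Rsubread and counted with featureCounts on its inbuilt Entrez annotation. The authors deposited raw counts per gene, without normalization or filter; aligner version and strand setting are not given in the sources used here. A gene was kept when 3 or more libraries reached 0.65 CPM (16302 genes), and 1204 were left out as immunoglobulin segments, ribosomal RNA, predicted or pseudogenes, Y-linked genes or Xist, or without a symbol. The other 15098 were tested with edgeR 4.0.16 (TMM, robust quasi-likelihood) in R 4.3.3, with Benjamini-Hochberg adjustment. DESeq2 1.42.0 and the study's limma pipeline (limma 3.58.1, prior count 2) were alternatives. The study's day block could not be fitted, since the labels give no day. RPKM used TMM-scaled library sizes and the deposited gene lengths. Intervals are 95% and cover the spread between libraries. Labels name 4 parent crosses. The edgeR fit without a block treated mice of the same cross as independent, and p-values measure the spread between these mice only. No libraries within a group were alike to within counting noise. For single genes, the exact permutation test was two-sided and used the 35 possible splits. The spans of 20 of the 45 members overlap another annotated gene, and without a stated strand setting reads could be shared there. The tests were tried on simulated data. The members, the marker lists and the further pathway genes were chosen with earlier results of these data known. Values are given in every library for members with an unadjusted p under 0.05 or without overlap and, in each role, the 2 highest by RPKM and the 1 with the largest difference. Of the further pathway genes, those with an unadjusted p under 0.05 are named. Positions and promoter sequences are from RefSeq's GRCm38.p6, the build of mm10.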

Additional observations from a re-analysis of the deposited data

Results flagged for a closer look

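Among the 4 controls, 1 library lay apart from the other 3 in 6 of 54 genes. The genes screened were the 45 members, Efnb2 and the 8 further pathway genes named. At a rate of 0.05, which takes control values to be normally distributed, chance would give about 2.7. The 8 further genes were picked by their p-values in these same data, and the share over all genes tested was not computed. The measure sets the distance from the library that lay apart to its closest neighbour against the whole spread of the controls, as a share. In all 6 it was control 1, the highest control, with 0.835 for Bmp3, 0.860 for Bmp8a, 0.904 for Tgfb2, 0.870 for Nog, 0.913 for Chrd and 0.873 for Crim1. Control 1 also had the highest level of 5 of the 7 osteoblast and osteocyte markers, with Ibsp and Phex highest in library 1 labelled f/f, and 96.7% of its marker sum was Col1a1. The part of these markers in the values of the 6 genes was not tested.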

How the results depend on the processing

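No member passed an adjusted p-value of 0.05 under any alternative except the limma pipeline with weights, which called 13 members, 17 further pathway genes and 2246 genes in all. Over all genes, DESeq2 called 72, the replicate block 1, and leaving out controls 1 and 4 together 2; leaving out 1 library gave 0 to 2. Members at an unadjusted p-value under 0.05, 7 in edgeR with all libraries, were 3 with the replicate block, 3 with the parent cross block (Bmp4, Fstl1 and Gdf10; 2.04% of all genes), 29 with the limma pipeline (32.9% of all genes), 25 without controls 1 and 4, and 3 to 15 with 1 library left out. The replicate numbers did not pair the mice (correlations of deviations -0.145, 0.0631 and -0.419), and the block changed no adjusted call among the members. Members without overlap, 6 with all libraries, were 31 without controls 1 and 4 and 6 to 20 with 1 library left out (16 without library 3 labelled f/f, against 30% of all genes, and 20 without control 1, against 19.6%), where a smaller group overlaps less by construction. The median log2 fold change of the members stayed above 0 in all, from 0.07 without control 3 to 0.44 without controls 1 and 4. The sign differed from that with all libraries in edgeR in 15 of the 45 members with the parent cross block, 7 with the limma pipeline, 5 without its weights, 4 with the replicate block, 2 with library size only, 2 with DESeq2, 7 without controls 1 and 4, and 1 to 8 with 1 library left out. Among the members with values given in every library, signs were reversed with the parent cross block for Bmp3 (0.74), Tgfb1 (0.21), Bmpr1b (-0.34), Acvr2a (-0.23), Id1 (0.64), Id2 (-0.25) and Id3 (1.19), with library size only for Bmp3 (0.0066) and Id3 (0.042), with the limma pipeline for Bmp3 (0.13) and Id3 (0.43), without its weights for Bmp3 (0.0030) and Id3 (0.11), with the replicate block for Id3 (0.18), and without controls 1 and 4 for Bmp3 (0.45), Id1 (0.29) and Id3 (0.70). With 1 library left out, the log2 fold change ran from -0.25 to 0.36 for Bmp3, from -0.11 to 0.24 for Tgfbr2, from -0.017 to 0.15 for Smad3 and from -0.29 to 0.39 for Id3. The cause of these reversals was not tested. Bmpr1b, Nog, Fstl3 and Bmp7 had few counts, which limits their precision.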
